A study of Mus musculus with 6 samples.

Results

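Transcripts of the NRF2 pathway and of antioxidant enzymes were followed in mouse liver as 10 genes: Nfe2l2, Keap1, Gclc, Gclm, Txnrd1, Srxn1, Gsr, G6pdx, Cat and Sod1. They were chosen by name, and each array probe whose accession RefSeq assigns to 1 of these symbols was taken. This gave 12 probes for the 10 genes, out of 26762 probes for 20284 genes that carried a symbol. All 10 genes passed the filter on dim probes, and 13314 genes did so in the whole table. Livers came from male Apoe-deficient mice on the C57BL/6J background, so control and treated animals alike lacked apolipoprotein E, and the sources used here do not give their age. A group of 9 mice ate a purified Western diet, in which refined palm oil made up 20% and cholesterol 0.15%, and 10 mice ate that diet with 1% squalene (about 1 g/kg), each for 11 weeks. RNA was pooled from 2 or 3 animals, giving 4 pools per diet. Every 2-colour array set 1 squalene pool against 1 Western pool, and the 6 arrays made up 4 pool pairs.

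NRF2, the product of Nfe2l2, is a transcription factor that KEAP1 holds in the cytoplasm and presents to a ubiquitin ligase for degradation. Electrophiles and oxidants modify cysteines of KEAP1, after which NRF2 builds up, enters the nucleus, pairs with a small MAF protein and binds antioxidant response elements. Its targets make glutathione, regenerate thioredoxin and peroxiredoxin and supply NADPH, and in liver they take part in the handling of drugs and oxidised lipid. Catalase and the copper-zinc superoxide dismutase remove hydrogen peroxide and superoxide directly.

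The DNA element that NRF2 reads has the core TGACNNNGC. It was searched on both strands of RefSeq promoter windows (build GRCm38.p6, 250 bases before to 50 after an annotated start), because NRF2 binds its targets through it. Elements outside these windows were not searched, and not every gene named here is defined as an NRF2 target. Windows were given for 8 of the 10 genes, and 6 of the 8 held a match: Nfe2l2, Gclm, Txnrd1, Srxn1, G6pdx and Sod1. Counted by window, these were 6 of 10, or 60.0%, against 12.4% of all 32851 windows in the table. For the other NRF2 targets listed further below it was 4 of 22 windows, or 18.2%. The share was 18.8% for NRF2 regulators, 17.9% for other glutathione enzymes and 17.6% for thioredoxin and peroxiredoxin genes. It was 18.2% for other NADPH sources, and the 1 window given for the list of Sod2, Sod3 and Ccs held 0. A match is a description of letters and not of a bound site. Stretches upstream of the start are shown for 5 genes with the matching bases in capitals, on the strand of the gene and 5′ to 3′. Only the Nfe2l2 match reads forward; the others read as the reverse complement, GCNNNGTCA.
Nfe2l2: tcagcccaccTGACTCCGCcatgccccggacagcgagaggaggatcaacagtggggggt
Gclm: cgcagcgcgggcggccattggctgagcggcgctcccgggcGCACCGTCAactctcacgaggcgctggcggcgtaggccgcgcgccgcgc
Txnrd1: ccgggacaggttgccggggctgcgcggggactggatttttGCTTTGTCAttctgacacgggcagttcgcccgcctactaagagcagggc
G6pdx: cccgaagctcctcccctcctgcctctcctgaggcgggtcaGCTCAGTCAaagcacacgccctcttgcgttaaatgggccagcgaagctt
Sod1: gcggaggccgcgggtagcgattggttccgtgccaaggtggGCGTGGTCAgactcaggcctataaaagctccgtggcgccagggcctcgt

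These stretches lie at chr2:75704855-75704913 (minus strand), chr3:122245383-122245471 (plus), chr10:82859074-82859162 (plus), chrX:74428889-74428977 (minus) and chr16:90220666-90220754 (plus). The first base of the match lies 240 bases before the start for Nfe2l2, 134 for Gclm, 92 for Txnrd1, in 1 of its 3 windows, 57 for G6pdx and 56 for Sod1. The Srxn1 match lies 29 bases into the transcribed region and is not shown.

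The design asks how squalene in a Western diet bears on liver transcripts. None of the 10 genes differed between the diets beyond the spread of the pool pairs. Their log2 ratios of squalene over Western ran from -0.14 for G6pdx to 0.16 for Keap1, with a median of -0.010 against 0.0028 for all features; leaving out 1 pair moved the members' median between -0.062 and 0.089. The mean was above 0 for 4 of the 10, where it was for 51.8% of features. By limma with Benjamini-Hochberg adjustment over 20661 features, 0 members passed an adjusted p of 0.05, as did 0% of all features. At an unadjusted p under 0.05 the count was 0 members against 2.47% of all features, and the smallest unadjusted p of a member was 0.117, for Keap1. No member had 1 sign in every pair; 6.38% of features did, 3.33% above 0 and 3.05% below. In 10 of the 10 genes the pools of the diets overlapped in level; they did not overlap for 0.779% of features. The 95% interval of the fitted ratio lay within 2-fold in either direction for 10 genes and within 1.5-fold for 8, the exceptions being Gclc and G6pdx. These intervals leave out differences between the dye orientations, which the dye intercept of the fit takes up.

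**Figure D1:**
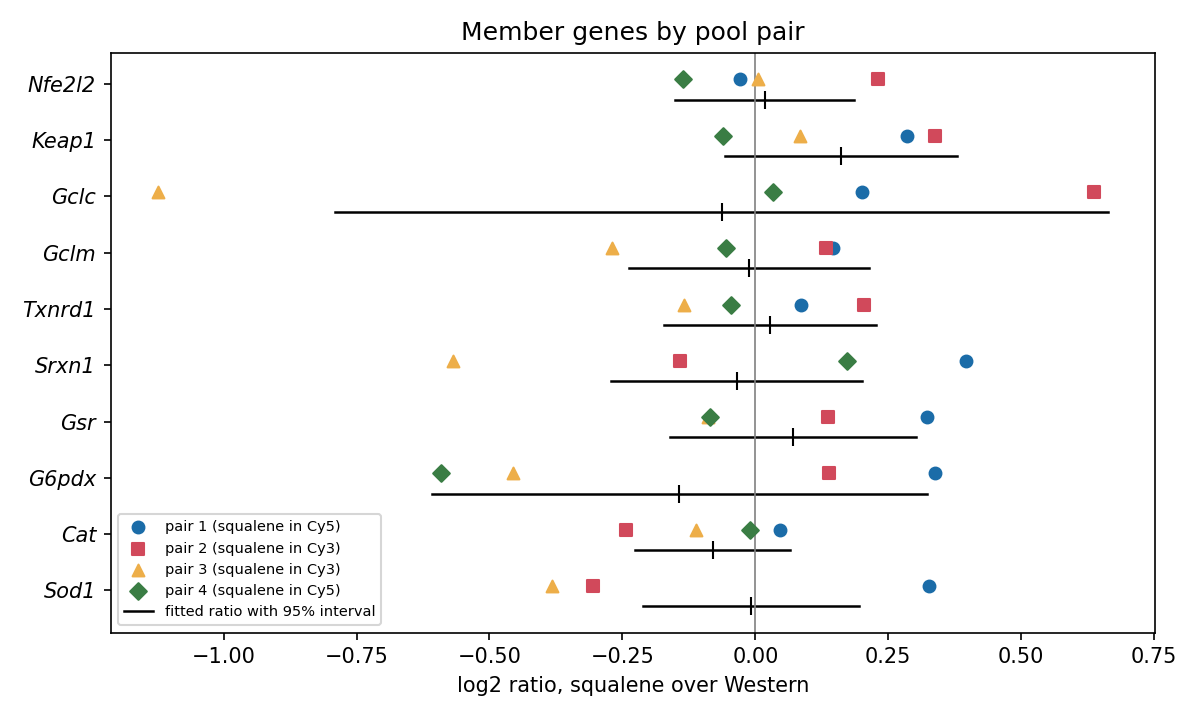
Log2 ratio of squalene over Western for each of the 10 genes, with a symbol per pool pair and, beneath, the fitted ratio with its 95% interval. Every interval spans 0; the Gclc ratios run from -1.12 in pair 3 to 0.64 in pair 2, and Sod1 has no value in pair 4.

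For Nfe2l2, the transcription factor itself, the log2 ratios were -0.029, 0.23, 0.0048 and -0.14 in pairs 1 to 4. The fitted ratio was 0.017 ± 0.15 (SD, n = 4), with a 95% interval from -0.15 to 0.19. Its log2 intensity was 11.49, 11.17, 11.25 and 11.38 in the Western pools and 11.46, 11.40, 11.25 and 11.24 in the squalene pools. The highest and the lowest of the 8 values were Western pools. NRF2 is regulated mainly through the stability of the protein, which arrays do not read.

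Keap1 encodes the adaptor that marks NRF2 for degradation. Its ratios were 0.28, 0.34, 0.084 and -0.061, above 0 in 3 of 4 pairs. The fitted ratio was 0.16 ± 0.18 (SD, n = 4; 95% interval -0.058 to 0.38; limma, Benjamini-Hochberg adjusted p = 0.9999). The level was 11.34 and 11.30 in the squalene pools of pairs 1 and 2, above the highest Western pool at 11.05, and 10.96 and 10.95 in those of pairs 3 and 4, within the Western range.

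Glutathione is built in 2 steps, and its first and limiting step is carried out by glutamate-cysteine ligase, with Gclc as the catalytic and Gclm as the modifier subunit. Gclc had the widest spread of the 10 genes. Its ratios were 0.20, 0.64, -1.12 and 0.032, so that pairs 2 and 3, of the same dye orientation, lay at opposite ends. The fitted ratio was -0.064 ± 0.75 (SD, n = 4; 95% interval -0.79 to 0.66), and its SD exceeded that of 98.9% of features. The Western pools stood at 13.55, 12.98, 13.81 and 13.16 and the squalene pools at 13.75, 13.61, 12.68 and 13.19. The ratio of pair 3 set the highest of the 8 levels, in the Western pool, against the lowest, in the squalene pool. That ratio lay at percentile 0.353 of all features in pair 3, and the ratio of pair 2 at percentile 99.1 in its own pair. Without pair 3 the Gclc ratio was 0.38, and without pair 2 it was -0.50, so leaving out pair 3 turned the sign and leaving out pair 2 kept it. In each of these fits Gclc passed an unadjusted p of 0.05, in opposite directions, and its limma p adjusted by Benjamini-Hochberg was 0.925 without pair 3 and 0.467 without pair 2.

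Gclm followed the same order of signs on a smaller scale in 3 of the pairs, with ratios of 0.15, 0.13, -0.27 and -0.056. Its fitted ratio was -0.012 ± 0.20 (SD, n = 4; 95% interval -0.24 to 0.21). Western pools read 10.12, 10.18, 10.48 and 10.21, and squalene pools 10.26, 10.31, 10.21 and 10.16. The high value was again the Western pool of pair 3.

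**Figure D2:**
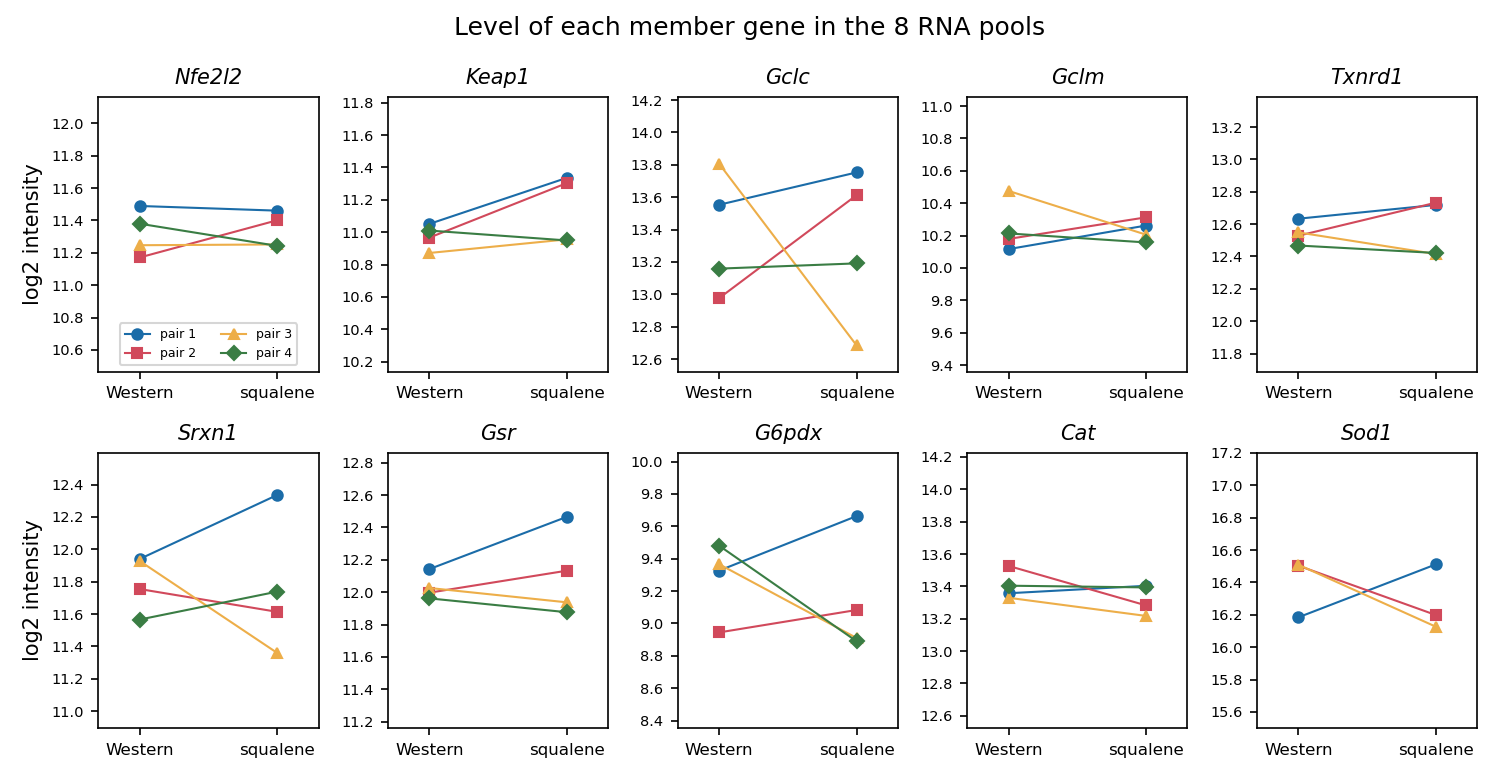
Log2 intensity after loess and quantile scaling (vertical axis, the same span in every panel) of each gene in the Western and squalene pool of each pair, joined by a line per pair. Lines cross in most panels, and for Gclc the pools of pair 3 (13.81 and 12.68) hold the highest and the lowest value.

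Gsr encodes glutathione reductase, which returns oxidised glutathione to its reduced form with NADPH. Its ratios were 0.32, 0.14, -0.089 and -0.086, and the fitted ratio was 0.071 ± 0.20 (SD, n = 4; 95% interval -0.16 to 0.30). The squalene pools read 12.47, 12.13, 11.94 and 11.88 and the Western pools 12.14, 12.00, 12.03 and 11.96. The highest of the 8 levels was the squalene pool of pair 1. The squalene pool of pair 2 lay within the Western range, and those at 11.94 and 11.88 lay below every Western pool. A second Gsr probe read 0.32, -0.0063, -0.10 and -0.097, with a mean of 0.030, so the probes differed in sign only in pair 2.

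Thioredoxin reductase 1, from Txnrd1, keeps cytosolic thioredoxin reduced, and sulfiredoxin, from Srxn1, repairs peroxiredoxins that peroxide has over-oxidised. Txnrd1 had ratios of 0.085, 0.20, -0.13 and -0.046 and a fitted ratio of 0.027 ± 0.15 (SD, n = 4; 95% interval -0.17 to 0.23). Its 8 levels lay between 12.42 and 12.73, the 2 highest and the 2 lowest all in squalene pools. Srxn1 had ratios of 0.40, -0.14, -0.57 and 0.17 and a fitted ratio of -0.035 ± 0.42 (SD, n = 4; 95% interval -0.27 to 0.20). Its ratios divided by dye: they averaged 0.28 in the pairs with squalene in Cy5 and -0.35 in those with squalene in Cy3. The dye intercept of the fit takes up that difference, so the interval is narrower than the spread, and dye cannot be told apart from the pools that share an orientation. The squalene pools of Srxn1 read 12.34, 11.61, 11.36 and 11.74 and the Western pools 11.94, 11.75, 11.93 and 11.57.

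G6pdx encodes glucose-6-phosphate dehydrogenase, the entry to the pentose phosphate pathway and a main source of NADPH for glutathione and thioredoxin reduction. Its ratios were 0.34, 0.14, -0.46 and -0.59, positive in pairs 1 and 2 and negative in pairs 3 and 4. The fitted ratio was -0.14 ± 0.45 (SD, n = 4; 95% interval -0.61 to 0.32). The squalene pools stood at 9.66, 9.08, 8.91 and 8.89, and the Western pools at 9.33, 8.94, 9.37 and 9.48. The squalene pools thus held both the highest value, in pair 1, and the 2 lowest, in pairs 3 and 4.

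Catalase, a peroxisomal enzyme, breaks down hydrogen peroxide. Cat had the narrowest spread of the 10 genes, with ratios of 0.046, -0.24, -0.11 and -0.011 and a fitted ratio of -0.080 ± 0.13 (SD, n = 4; 95% interval -0.23 to 0.066). Western pools read 13.36, 13.53, 13.33 and 13.40 and squalene pools 13.40, 13.28, 13.22 and 13.39. A second Cat probe, also well above background in all 8 pools, read 0.029, -0.080, 0.34 and -0.12 with a mean of 0.042. The Cat probes disagreed in pair 3, at -0.11 and 0.34.

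Sod1 encodes the cytosolic superoxide dismutase. It had a single probe, and the scanner software marked its spot as non-uniform on the array of pair 4, so 3 pairs were used. Their ratios were 0.33, -0.31 and -0.38, with a mean of -0.12 ± 0.39 (SD, n = 3). The fit, which weighs the dye orientations equally, gave -0.0083 with a 95% interval from -0.21 to 0.19. Pair 1 was the only pair left with squalene in Cy5, so the error came from pairs 2 and 3 and the prior. The interval is therefore narrower than the spread of the 3 ratios. The Western pools read 16.18, 16.50 and 16.51 and the squalene pools 16.51, 16.20 and 16.13. Pair 1, with squalene in Cy5, lay above 0 and pairs 2 and 3, with squalene in Cy3, below. With the marked spot kept, a setting chosen after seeing the data, the Sod1 ratio was 0.025.

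For pairs 1 and 2 a second array on another slide gives the technical error of these values, apart from any dye bias. Both arrays of a pair had the same dye orientation, so a dye bias would repeat. Between repeat arrays the ratios of the 10 genes differed by a median of 0.063 and by at most 0.19, for Gsr in pair 1. The SD between pool pairs ran from 0.13 for Cat to 0.75 for Gclc and was above the median of all features, 0.16, for 7 of the 10 genes.

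**Figure D3:**
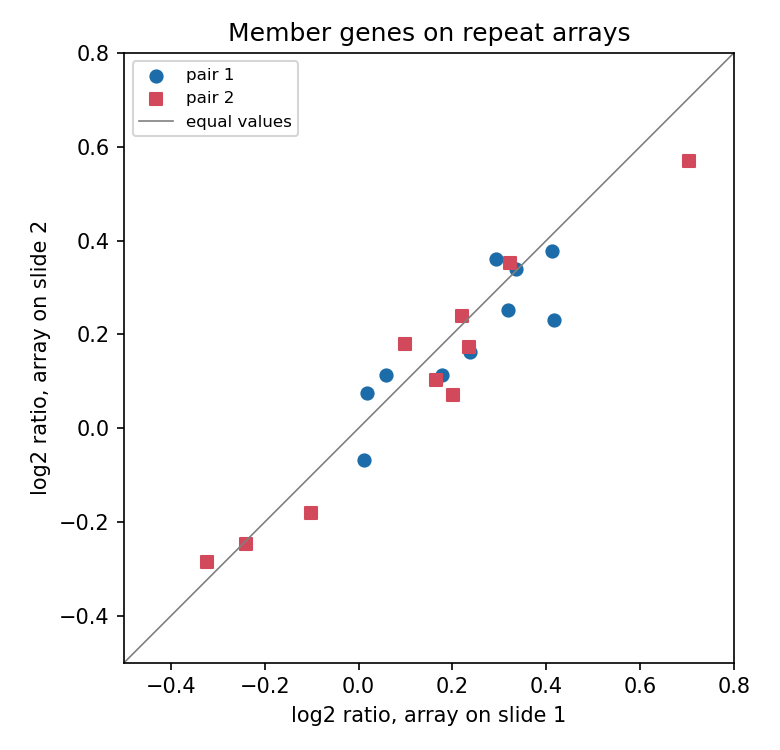
Log2 ratio of squalene over Western for the 10 genes on the array of slide 1 (horizontal) and of slide 2 (vertical), for pool pairs 1 and 2, with the line of equal values. Points lie near the line, with a median difference of 0.063.

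Within a pair the genes leaned to 1 side. In pair 1, 9 of 10 were above 0, where 52.7% of all features were, and in pair 2 it was 7 of 10, against 48.2%. In pair 3, 2 of 10 were above 0, against 47.8%, and in pair 4, 2 of 9, against 51.4%. Gclm, Txnrd1, Gsr and G6pdx each had the signs above, above, below and below 0 in pairs 1 to 4. The share of all features with this order of signs is not given here, so it cannot be called particular to these genes. The median of the members was 0.24, 0.14, -0.20 and -0.056 in the 4 pairs, against feature medians between -0.012 and 0.0094. Across all features, ratios of pairs of opposite dye orientation correlated at r = -0.428 (pairs 1 and 3), -0.409 (2 and 4), -0.135 (1 and 2) and -0.0229 (3 and 4). For pairs of the same orientation r was 0.156 (2 and 3) and 0.0775 (1 and 4). Features are not independent replicates.

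Other targets of NRF2 were taken from a list of 23 genes, of which 22 were tested. By limma with Benjamini-Hochberg adjustment 0 passed an adjusted p of 0.05. At an unadjusted p under 0.05 there was 1 higher and 0 lower, against 1.05% and 1.42% of features, and the list's median was 0.018, or from -0.11 to 0.14 when 1 pair was left out. Within pairs their counts were 19 of 22 above 0 in pair 1 (median 0.37), 13 in pair 2 (0.045), 3 in pair 3 (-0.39) and 9 in pair 4 (-0.084). Of the 22 genes, 2 were above 0 in every pair, against 3.33% of features, and 0 were below, against 3.05%. The naming rule picks genes by such a single sign, so the sign is no separate result. The 2 were Abcc3 and Abcc2, efflux pumps of the hepatocyte membrane, at 0.24 ± 0.10 and 0.16 ± 0.12 (SD, n = 4). Abcc3 was the gene past an unadjusted p of 0.05. Of the classic reporters of NRF2 activity, the naming rule picked neither Nqo1 nor Hmox1. The quinone reductase Nqo1 had ratios of 0.32, -0.34, -0.26 and 0.12, and the heme oxygenase Hmox1 0.64, 0.23, -0.40 and -0.37. Their fitted ratios were -0.037 ± 0.31 and 0.026 ± 0.50 (SD, n = 4). Osgin1, an oxidative stress-induced growth inhibitor, had the signs of G6pdx with larger values, at 0.72, 0.79, -1.88 and -0.52, and a fitted ratio of -0.22 ± 1.26 (SD, n = 4; 95% interval -1.42 to 0.97). Nqo1, Hmox1 and Osgin1 were named after their values were seen.

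**Figure D4:**
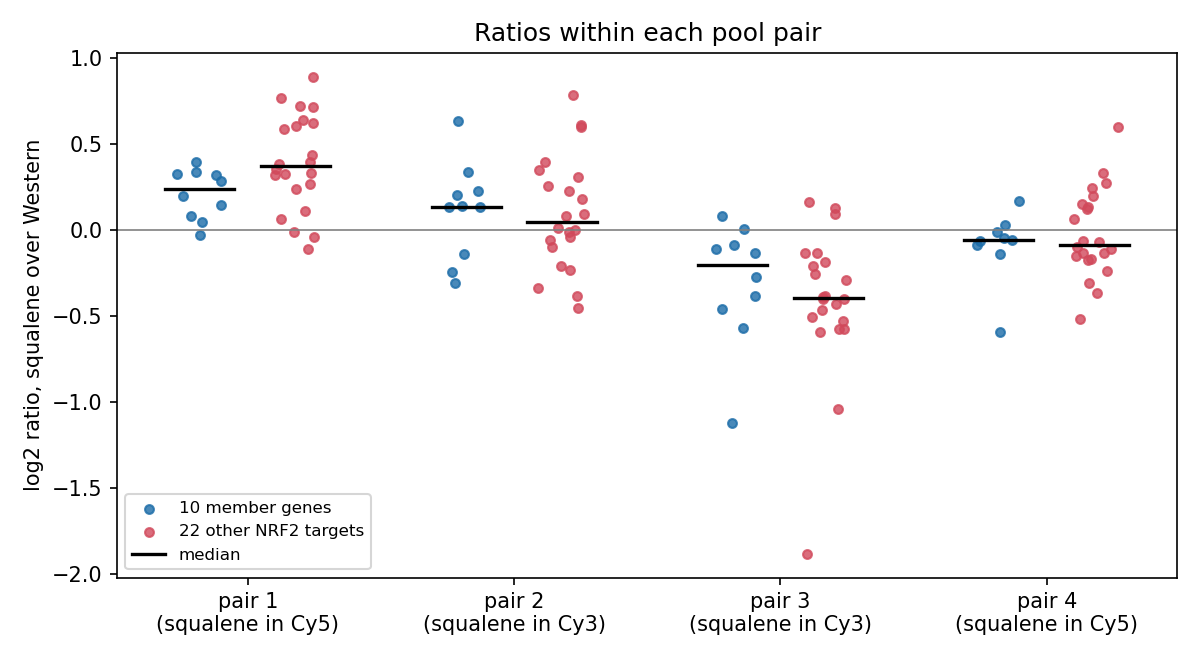
Log2 ratio of squalene over Western (vertical) in each pool pair for the 10 genes and for 22 other NRF2 targets, a point per gene, with medians as bars. Medians are above 0 in pairs 1 and 2 and below 0 in pairs 3 and 4 for both sets.

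Markers of other cell types varied between pairs as well. Kupffer cell and macrophage markers (11 of 12 tested) had medians of 0.25, 0.23, -0.54 and -0.46 in pairs 1 to 4, the order of signs shown by G6pdx, Gsr, Gclm, Txnrd1 and the other NRF2 targets. Their summed intensity ran from 77710 to 124300 in Western and from 71090 to 135400 in squalene pools. Red cell markers (6 of 8 tested) had medians of 0.0082, -0.54, -1.62 and 0.14, with sums from 108700 to 252400 in Western and from 76870 to 165600 in squalene pools. Hepatocyte markers (9 of 10 tested) had medians of 0.033, -0.25, 0.31 and 0.30, with sums from 800100 to 1032000 in Western and from 844700 to 1065000 in squalene pools. Gene symbols were not matched for Tf, Cd68 and Ahsp. Markers of lipid-associated macrophages (8 of 8 tested) had medians of 0.26, -0.57, -0.68 and -0.18, and those of stellate cells and fibroblasts (10 of 10) 0.14, -0.47, -0.50 and 0.13. For liver endothelium (8 of 8) the medians were 0.20, -0.031, -0.24 and -0.048, for bile duct (5 of 6) -0.16, -0.059, -0.050 and 0.13, and for neutrophils (4 of 7) 0.15, -0.22, -0.70 and -0.16. The part of these cells in the values of the NRF2 genes was not tested, and in RNA from whole liver fewer cells of a type and less RNA per cell cannot be told apart.

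Genes for the partners and regulators of NRF2 and KEAP1 had fitted ratios from -0.072 to 0.23. Of 11 regulators, 0 passed an adjusted p of 0.05 and 0 an unadjusted p of 0.05 (limma, Benjamini-Hochberg), 7 had a mean above 0, and the median was 0.045. Cul3, the scaffold of the ligase that KEAP1 serves, had ratios of 0.083, 0.21, 0.15 and 0.047 and was above 0 in every pair, at 0.12 ± 0.070 (SD, n = 4; 95% interval -0.017 to 0.26). It was named for that single sign, which 1 of the 11 regulators had, against 3.33% of features above 0 in every pair. The highest fitted ratio and the widest spread belonged to Maff, a small MAF partner of NRF2, named after its values were seen, at 0.23 ± 1.10 (SD, n = 4; 95% interval -0.68 to 1.14), below 0 in pair 2 alone, at -1.15.

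In the lists of other glutathione, thioredoxin, superoxide dismutase and NADPH genes, 0 passed an adjusted p of 0.05 (limma, Benjamini-Hochberg). Among 17 tested glutathione enzymes the median was -0.0092, 0 passed either threshold, and the smallest unadjusted p belonged to Chac1, which degrades glutathione, with ratios of 0.15, -0.16, -1.21 and -0.019. Among 18 thioredoxin and peroxiredoxin genes the median was 0.016. Txnip, which binds and inhibits thioredoxin, was the only one of these 18 past an unadjusted p of 0.05, at -0.31 ± 0.56 (SD, n = 4; SE 0.079; limma, Benjamini-Hochberg adjusted p = 0.9999). Its ratios were 0.033, -0.92, -0.64 and 0.29, so it was lower in the pairs with squalene in Cy3 and higher in the other two. In the superoxide dismutase list, Sod2, Sod3 and Ccs had means below 0, and 0 passed either threshold. Their median of -0.064 is the value of Ccs, which is not itself a dismutase. Among them Ccs, the chaperone that loads copper into SOD1, was below 0 in every pair, at -0.080, -0.056, -0.11 and -0.012. Ccs was named for that single sign, and 3.05% of all features were below 0 in every pair. Of 8 tested NADPH-supplying genes 0 passed either threshold, and the cytosolic isocitrate dehydrogenase Idh1, with the smallest unadjusted p, had ratios of -0.21, 0.31, 0.54 and -0.36.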

How the data were processed

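Pools of mouse liver RNA were hybridised in pairs to 6 arrays. The deposited scanner files hold median spot and background intensity in each channel, and processed intensity that is background-subtracted and dye-normalised; per the file headers they were made with version 10.7.3.1 of Agilent's Feature Extraction software. In the deposited table of values, the columns of pairs 2 to 4 hold log10 ratios made and deposited by the authors. The columns of pair 1 could be taken for a score made and deposited by the authors, because 2 values in each exceed any log ratio. These values were dropped, and the rest were used as log10 ratios like those of pairs 2 to 4. The table equalled log10 of squalene over Western median signals within 0.001 for at least 99.93% of spots, with column medians of 0.254, 0.27, -0.217, -0.257, -0.27 and 0.259.

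In R 4.3.3 with limma 3.58.1, signals were corrected by normexp (offset 50) and loess, with controls at weight 0 and marked outlier spots left out. Ratios were turned to squalene over Western by the dye labels, and repeat arrays were averaged, leaving 4 pairs. Probes well above background in over 0.5 of spots in 3 pairs for at least 1 diet were kept (26856 of 55681), the brightest per gene. limma (lmFit, eBayes) fitted the squalene effect with a dye intercept over 20661 features with Benjamini-Hochberg adjustment. The residual degrees of freedom were 2 for features measured in 4 pairs, fewer for those in 3, and the prior 3.04. Pools of a diet differ in animals, but the sources used here do not say which animals made up a pool, so the pool pair is the replicate. With the dye intercept, p-values measure the spread between pool pairs of the same dye orientation, moderated by the prior. An exact sign-flip permutation test over 4 pairs cannot go below 0.125 (0.25 for 3); the lowest for a member was 0.25. Per channel, the share of spots well above background ran from 48.67% to 54.16%, and 0 spots were saturated. The number of arrays limits the precision. Symbols come from RefSeq (GRCm38.p6), which named 26762 probes; the files name another build, so probe positions are not given.

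The members and lists were chosen with earlier results of these data known. The rule named all members and, per list, up to 3 genes with 1 sign in all pairs by smallest unadjusted p, or the gene with the smallest where there was none. Levels per channel were scaled by Aquantile. The fit was tested on simulated data.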

Additional observations from a re-analysis of the deposited data

How the results depend on the processing

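Under 16 other settings 0 members and 0 genes of the pathway lists passed an adjusted p of 0.05 (limma, Benjamini-Hochberg). Over all features the count past it was 0 in the main fit, 2 with median centring in place of loess, 8 with the authors' deposited value table and 4 with 6 arrays and the pool pair as a random block. At an unadjusted p under 0.05 it was 510, and 201 with median centring, 183 with the deposited table, 935 with no filter on dim probes (more features tested) and 254 without the dye intercept. When 1 pair was left out, that count ran from 346 to 1287 (without pair 2; 832 without pair 3), the members past it from 0 to 1 (Gclc without pair 2 or 3), and the members with 1 sign in all remaining pairs from 0 to 1 (Cat without pair 1, Gclc without pair 3, Keap1 without pair 4). The cause was not tested. Fitted ratios of single genes changed sign in 25 cases. Nfe2l2 was at -0.0038 with the scanner software's processed signals. Gclm was at 0.0083 with median centring and 0.0096 with the deposited table. Sod1 was at 0.013 with processed signals, 0.048 with median centring, 0.071 with the deposited table, 0.013 on slide 2 alone and 0.025 with spot outliers kept. Leaving out 1 pair moved the ratio from -0.039 to 0.074 for Nfe2l2, from -0.50 to 0.38 for Gclc, from -0.11 to 0.089 for Gclm, from -0.057 to 0.11 for Txnrd1, from -0.14 to 0.072 for Srxn1, from -0.031 to 0.17 for Gsr and from -0.37 to 0.089 for G6pdx. For the other targets it moved from -0.088 to 0.013 for Nqo1, from -0.23 to 0.28 for Hmox1 and from -0.89 to 0.44 for Osgin1. Keap1 kept its sign in all settings, from 0.075 to 0.25, and Cat from -0.11 to -0.019. For Cat, -0.019 came from the mean over its probes, and the other settings used only the brightest probe. The second Cat probe had a mean of 0.042 in the main processing, so the sign depends on the probe. Every fit is paired by construction, since each ratio sets the pools of a pair against each other, so no unpaired fit was made. The dye orientation and the pools that share it cannot be told apart. Sod1 had no value without pairs 1, 2 or 3, since 2 pairs are too few for the fit.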
